A study of Mus musculus with 4 samples.

Results

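The data described here are the transcript levels of 10 genes of sphingolipid metabolism and signalling in cultured mouse spermatogonia. They are the sphingosine kinases Sphk1 and Sphk2, the sphingosine 1-phosphate (S1P) receptors S1pr1, S1pr2 and S1pr3, the S1P-degrading enzymes Sgpl1 and Sgpp1, the ceramide glycosyltransferases Ugt8a and Ugcg, and the ceramide kinase Cerk. The 10 genes were found by symbol among 55421 genes of the count table, 1 entry each. They were picked by function with the fall of Sphk1 in these same libraries already known, so their differences between the groups are given as a description. Where a member is said to be past the threshold or not, this is its call in the fit across all genes (edgeR, adjusted p under 0.05), and no p is given for it.

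The libraries were made from spermatogonial stem cell (SSC) cultures, primary cultures enriched for undifferentiated spermatogonia from the testes of neonatal CD1 mice and grown on irradiated mouse embryonic fibroblast (MEF) feeder cells. The Veh group (n = 2 libraries) was kept in complete SSC medium with N2 supplement, bFGF and GDNF. The NRRA group (n = 2 libraries) was given nutrient restriction medium, in which a balanced salt solution takes the place of most of the complete medium, plus retinoic acid (RA). Treatment lasted 2 days, per the methods for cultures of this kind. The comparison asks how SSC cultures of the CD1 background respond to both signals given together. Libraries with RA alone or nutrient restriction alone were not analysed here, so the contributions of RA, of lost nutrients and of diluted growth factors cannot be told apart. Feeder cells were present in both groups, and the labels do not name the mice or cultures behind each library. The study describes its sequencing replicates as biologically independent, without saying which mice or cultures gave these libraries.

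Sphingolipids are built on a sphingoid base. Ceramide, the hub of the pathway, is made into sphingomyelin, into glycolipids (by Ugcg with glucose or Ugt8a with galactose) or into ceramide 1-phosphate (by Cerk), or is cleaved to sphingosine, which the sphingosine kinases turn into S1P. S1P signals through G protein-coupled receptors on the cell surface and is removed by dephosphorylation (Sgpp1) or irreversible cleavage (Sgpl1). In the testis Ugt8a is best known for its part in making seminolipid, a sulfated galactolipid that male germ cells need.

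The promoter stretches of 4 members are shown first, so that their letters can be read beside their values. They are a gene that fell (Sphk1), a gene that rose (Ugt8a) and 2 receptors that moved in opposite directions (S1pr2 and S1pr3). Each stretch is the 250 bases before a RefSeq transcription start (GRCm38.p6), read 5′ to 3′ on the strand of the gene, chosen so as to hold no annotated exon. The Sphk1 stretch precedes 1 of its 5 RefSeq starts and lies between exons of the gene. Capitals mark matches to the motifs described below.
Sphk1, chr11:116532194-116532443, plus strand: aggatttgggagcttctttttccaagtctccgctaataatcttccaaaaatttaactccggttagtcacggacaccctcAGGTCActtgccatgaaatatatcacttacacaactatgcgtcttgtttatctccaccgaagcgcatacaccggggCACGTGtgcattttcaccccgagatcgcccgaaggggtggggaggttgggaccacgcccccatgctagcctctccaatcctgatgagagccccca
Ugt8a, chr3:125938653-125938902, minus strand: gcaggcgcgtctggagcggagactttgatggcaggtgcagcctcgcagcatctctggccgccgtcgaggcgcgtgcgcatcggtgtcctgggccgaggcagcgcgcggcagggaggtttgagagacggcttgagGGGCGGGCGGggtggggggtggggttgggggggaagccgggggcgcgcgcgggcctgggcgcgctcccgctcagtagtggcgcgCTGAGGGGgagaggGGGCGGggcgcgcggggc
S1pr2, chr9:20976794-20977043, minus strand: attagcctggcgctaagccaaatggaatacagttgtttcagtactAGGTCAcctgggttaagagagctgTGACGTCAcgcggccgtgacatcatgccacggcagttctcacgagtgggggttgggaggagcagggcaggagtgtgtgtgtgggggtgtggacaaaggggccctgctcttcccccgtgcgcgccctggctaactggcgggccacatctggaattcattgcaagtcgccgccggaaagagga
S1pr3, chr13:51408368-51408617, plus strand: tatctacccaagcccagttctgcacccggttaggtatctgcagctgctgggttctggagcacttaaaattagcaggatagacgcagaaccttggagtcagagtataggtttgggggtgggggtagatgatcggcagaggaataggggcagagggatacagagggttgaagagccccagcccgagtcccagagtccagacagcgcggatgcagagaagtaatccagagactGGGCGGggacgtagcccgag

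The libraries held between 28022265 and 31604769 counts, so that a count of 3, taken as the floor, lay between 0.0921 and 0.111 CPM (counts relative to library size, with TMM scaling). Stra8 and Cyp26a1, direct targets of RA, averaged 9.85 ± 0.325 and 0.895 ± 0.0658 CPM over the Veh libraries, against 1858 ± 7.88 and 255 ± 4.43 CPM over the NRRA libraries (SD, n = 2), so the group labels and the RA response went together. Rec8, the other gene of that list, also rose, by 2.83 on the log2 scale. Of 8 germ cell markers 4 rose and 3 fell (edgeR quasi-likelihood test, adjusted p under 0.05), and their summed level was between 1838 and 1901 CPM in Veh and between 1999 and 2019 CPM in NRRA. All 9 markers of undifferentiated spermatogonia fell at least 2-fold, from a sum of between 1798 and 1825 CPM to between 329 and 333 CPM. Of 20 fibroblast markers 16 fell and 2 rose, and the sum went from between 11078 and 11204 CPM to between 8380 and 8563 CPM. Of 8 Sertoli cell markers, Amh, Rhox5 and Cldn11 did not pass the filter, Amh and Rhox5 having at most 3 counts in each library, while Sox9 fell and Inha rose, and the sum was between 37.98 and 42.4 CPM in Veh and between 21.2 and 21.5 CPM in NRRA. Of 5 endothelial markers Pecam1 and Kdr fell, and the sum was 19.0 CPM in both Veh libraries and between 7.97 and 8.11 CPM in NRRA. These marker counts stand beside 27.9% higher and 28.4% lower among all genes tested, with 7.02% at least 2-fold lower. In such bulk libraries fewer cells of a type and less RNA per cell cannot be told apart, and the part of these shifts in the values below was not tested.

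Sphk1 (ENSMUSG00000061878, GRCm38, chr11:116530925-116536674, plus strand), the inducible and mostly cytosolic kinase that makes S1P, was measured at 113 and 112 CPM in the Veh libraries and at 5.13 and 5.25 CPM in the NRRA libraries. The raw counts behind these levels were 3072 and 3325 for Veh, 167 and 158 for NRRA. Both NRRA libraries thus lay far below both Veh libraries, and the libraries of each group lay close together. The log2 fold change, always NRRA over Veh here, was -4.44 (SE 0.066), a level 21.7-fold lower, and it was the 54th lowest among the 20232 genes tested. This is the value by which the gene list was chosen. Beside it, the 20 fibroblast markers had a median log2 fold change of -0.37 and a lowest one of -1.52 (Timp1), and the 9 markers of undifferentiated spermatogonia had a median of -2.82 and a range from -6.70 (Nanos2, with 0 and 3 counts in NRRA) to -1.38 (Gfra1). Whether Sphk1 came from the spermatogonia or the feeder cells was not tested.

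Sphk2 (ENSMUSG00000057342, chr7:45709467-45718002, minus strand) makes the same product in the nucleus and other internal compartments. Its level was 52.1 and 53.1 CPM in Veh and 58.6 and 53.7 CPM in NRRA. The groups did not overlap, yet the NRRA libraries differed from each other by more than the gap between the groups. The log2 fold change was 0.094 (SE 0.052), with a 95% interval of -0.014 to 0.20, and the gene was not past the threshold. It would be past it without NRRA replicate 2 (0.15, SE 0.068) and with library size only (0.18, SE 0.052). Of its exonic bases 21.9% overlap Dbp and Rpl18 on the opposite strand. The study's methods describe stranded libraries, but no strand setting is given for the counting. Reads of Dbp and Rpl18 may therefore be mixed into the Sphk2 value.

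Set side by side per kilobase of exon, the kinases exchanged their order. Sphk1 made up 65.4% and 64.7% of the summed kinase level in Veh replicates 1 and 2, but 7.08% and 7.84% in those of NRRA. The sum itself was 36.3 and 36.2 CPM per kilobase in Veh and 15.2 and 14.0 in NRRA. The remainder of the kinase transcript in NRRA was Sphk2. The share is free of scaling between libraries, since both genes were read in the same library.

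**Figure D1:**
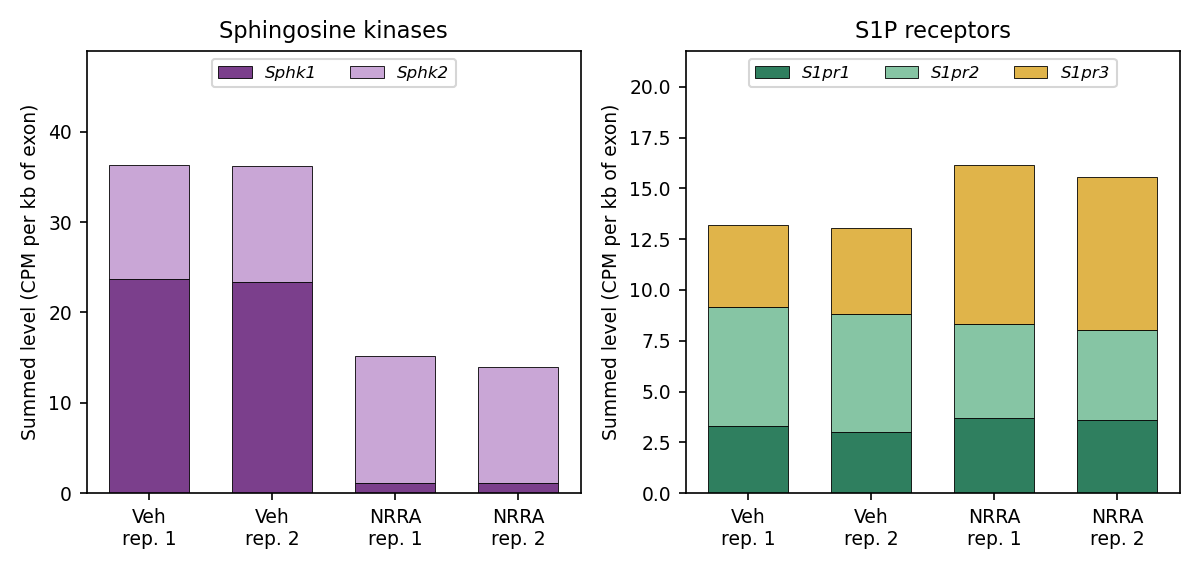
Stacked levels of the sphingosine kinases (left) and the S1P receptors (right) in CPM per kilobase of exon, 1 bar for each of the 4 libraries (rep., replicate). Sphk1 is the larger part of the kinase bars in Veh (65.4% and 64.7%) and a thin part in NRRA (7.08% and 7.84%). S1pr3 takes the place of S1pr2 as the largest part of the receptor bars in NRRA. This receptor order holds per kilobase only, since in CPM S1pr2 stayed the higher in NRRA.

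Of the S1P receptors, S1pr3 (ENSMUSG00000067586, chr13:51408639-51422797, plus strand), which couples to several G protein classes, rose from 18.1 and 18.9 CPM in Veh to 34.8 and 33.5 CPM in NRRA. Every NRRA library lay above every Veh library, with a log2 fold change of 0.89 (SE 0.070). S1pr2 (ENSMUSG00000043895, chr9:20962361-20976781, minus strand), another G protein-coupled receptor for S1P, went the other way. Its level was 46.8 and 46.2 CPM in Veh and 36.8 and 35.2 CPM in NRRA, and it fell by 0.37 on the log2 scale (SE 0.056). S1pr1 (ENSMUSG00000045092, chr3:115710433-115715072, minus strand), a Gi-coupled receptor prominent in endothelium and lymphocytes, was measured at 10.0 and 9.18 CPM in Veh and 11.3 and 11.0 CPM in NRRA. Its log2 fold change of 0.22 (SE 0.11, 95% interval -0.0023 to 0.44) did not pass the threshold, but did with library size only (0.31, SE 0.11). Beside it, the endothelial markers Pecam1 and Kdr fell by 1.96 and 1.46 on the log2 scale. Cdh5 (-0.46, SE 0.24), Emcn (-0.38, SE 0.40) and Tek (0.51, SE 0.35) did not pass the threshold.

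The receptors together were at 13.2 and 13 CPM per kilobase in Veh and 16.1 and 15.5 in NRRA. S1pr2 held 44.4% and 44.5% of the receptor level in Veh and 28.6% and 28.4% in NRRA. S1pr3 held 30.6% and 32.5% in Veh and 48.3% and 48.4% in NRRA. The ratio of S1pr3 to S1pr2 per kilobase was 0.689 and 0.73 in Veh and 1.69 and 1.70 in NRRA. Per kilobase, the most abundant receptor transcript was thus S1pr2 in Veh and S1pr3 in NRRA. In CPM, S1pr2 stayed the higher in both NRRA libraries (36.8 and 35.2, against 34.8 and 33.5 for S1pr3). The order in NRRA therefore depends on the exon lengths used, 7.971 kb for S1pr2 and 4.463 kb for S1pr3. The remaining receptors were near the floor. S1pr4 had between 1 and 3 counts in each library and S1pr5 had 1 count in NRRA replicate 1 and 0 in the others, all at or under the floor of 3 counts.

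Sgpl1 (ENSMUSG00000020097, chr10:61098642-61147703, minus strand), the S1P lyase that ends the pathway, was the most abundant member in every library. Its level was 242 and 258 CPM in Veh and 313 and 314 CPM in NRRA, a log2 fold change of 0.32 (SE 0.030), with no overlap between the groups. Sgpp1 (ENSMUSG00000021054, chr12:75714249-75735729, minus strand), the phosphatase that returns S1P to sphingosine, went from 29.0 and 28.8 CPM to 25.0 and 21.6 CPM, a log2 fold change of -0.31 (SE 0.075). The NRRA libraries of Sgpp1 were the more spread, and without NRRA replicate 2 the value was -0.21 (SE 0.093) and no longer past the threshold. Per kilobase, Sgpl1 was 1.09 and 1.16 times the summed sphingosine kinases in Veh and 3.36 and 3.65 times in NRRA.

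Ugt8a (ENSMUSG00000032854, chr3:125865271-125938619, minus strand), which transfers galactose to ceramide and related lipids, rose from 11.4 and 10.9 CPM in Veh to 22.9 and 23.3 CPM in NRRA. The groups lay well apart, with 308 and 323 counts against 745 and 702. Its log2 fold change of 1.06 (SE 0.086) was the largest rise among the members and the 1249th highest value of all genes tested. Ugcg (ENSMUSG00000028381, chr4:59189257-59222833, plus strand), which starts the glucose-based glycolipids, was measured at 67.5 and 71.3 CPM in Veh and 68.5 and 63.0 CPM in NRRA. These groups overlapped, with a log2 fold change of -0.078 (SE 0.049, 95% interval -0.18 to 0.023), and the sign turned with library size only (0.012, SE 0.049). The ratio of Ugcg to Ugt8a per kilobase was 5.17 and 5.72 in Veh and 2.61 and 2.35 in NRRA.

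Cerk (ENSMUSG00000035891, chr15:86139128-86186141, minus strand), which phosphorylates ceramide, was at 11.2 and 12.7 CPM in Veh and 9.15 and 9.60 CPM in NRRA. The groups did not overlap, with a log2 fold change of -0.35 (SE 0.11). This call was lost with DESeq2 (-0.34, SE 0.17), without Veh replicate 2 (-0.26, SE 0.13) and without NRRA replicate 1 (-0.31, SE 0.14). The gap between the groups was thus little wider than the spread of the Veh libraries.

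**Figure D2:**
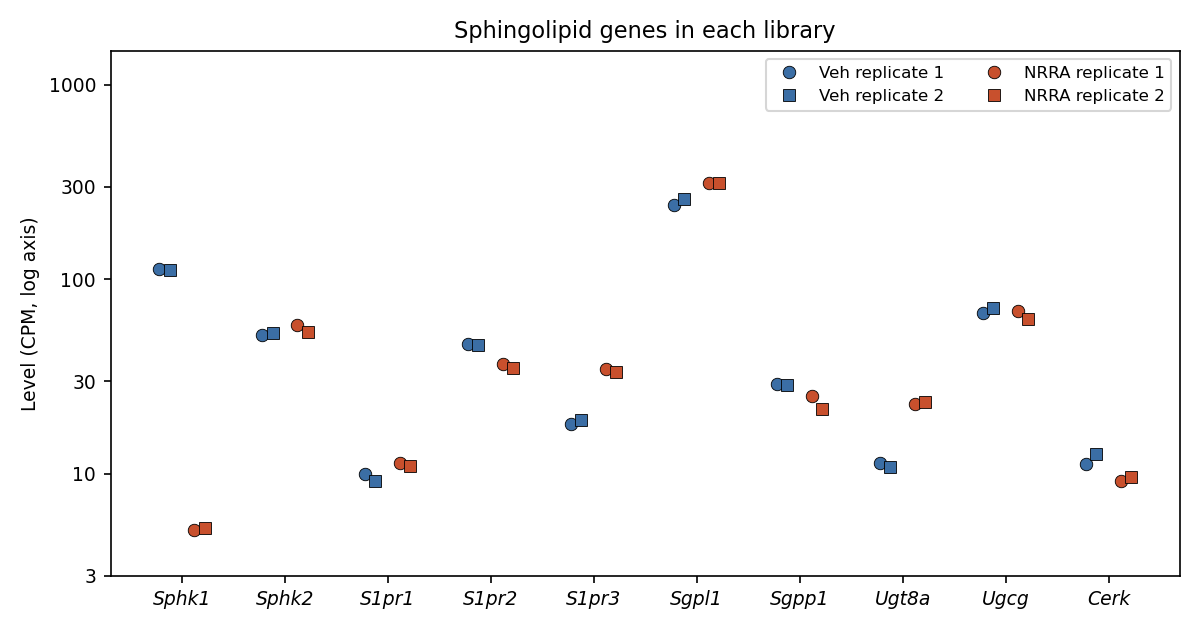
Level of each of the 10 genes in each library, in CPM on a log axis, with circles for replicate 1 and squares for replicate 2. The Sphk1 points of NRRA (5.13 and 5.25 CPM) sit far below those of Veh (113 and 112 CPM), the S1pr3 and Ugt8a points of NRRA lie above those of Veh, and the Ugcg points of both groups overlap.

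All 10 members passed the filter on low counts. Past the threshold were 3 higher (S1pr3, Sgpl1 and Ugt8a) and 4 lower members (Sphk1, S1pr2, Sgpp1 and Cerk), where 27.9% of all genes tested were higher and 28.4% lower, together 56.4%. At least 2-fold, 1 was higher (Ugt8a) and 1 lower (Sphk1), against 6.29% and 7.02% of all genes. Both NRRA libraries lay above both Veh libraries for 5 members and below them for 4, as they did for 38.1% and 38.6% of all genes tested, together 76.7%. The median log2 fold change of the members was 0.0081, and that of all genes tested was 0.0003. Since the members were chosen with this comparison in view, nothing is read from these counts. With library size only, 5 members were higher and 4 lower, and among all genes tested the higher share of the calls went from 49.6% to 60.3%.

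Per kilobase of exon the order of the members in Veh was Sgpl1 (40.7 CPM per kilobase), Sphk1 (23.6), Ugcg (13.3), Sphk2 (12.7), S1pr2 (5.84), Sgpp1 (5.11), S1pr3 (4.14), S1pr1 (3.15), Cerk (2.48) and Ugt8a (2.45). Cerk and Ugt8a overlapped over the Veh libraries, and the other neighbours in this order did not. In NRRA the order was Sgpl1 (51.0), Sphk2 (13.5), Ugcg (12.6), S1pr3 (7.65), Ugt8a (5.09), S1pr2 (4.52), Sgpp1 (4.12), S1pr1 (3.67), Cerk (1.95) and Sphk1 (1.09). There Sphk2 overlapped Ugcg and S1pr2 overlapped Sgpp1. Sphk1 moved from the second to the last place, while Ugt8a and S1pr3 moved up.

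**Figure D3:**
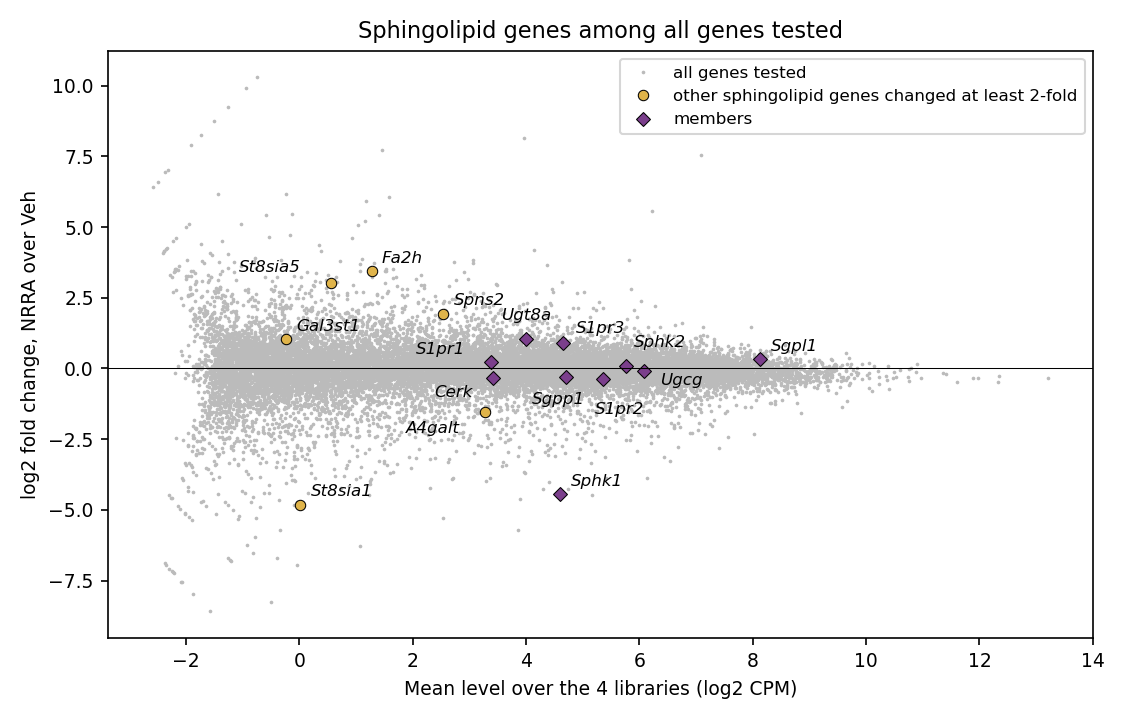
Log2 fold change (NRRA over Veh) against mean log2 CPM over the 4 libraries for the 20232 genes tested (grey), with the 10 members as diamonds and the other sphingolipid genes that changed at least 2-fold as circles. Sphk1 (-4.44) stands at the lower edge of the cloud, Ugt8a (1.06) and S1pr3 (0.89) above the middle, and the remaining members near 0.

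The rest of the pathway was read from 68 further genes, of which 63 passed the filter. Of these, 20 were higher and 20 lower in NRRA (edgeR quasi-likelihood test, adjusted over all genes tested), near the 27.9% and 28.4% of all genes tested. The counts of the smaller groups below stand against these same shares, and nothing is read from them about a group as a whole. Over the 63 genes the median log2 fold change was -0.038, with an SD of 0.029 when each NRRA library was set against each Veh library. At least 2-fold, 4 were higher and 2 lower. With library size only, 24 were higher and 15 lower, so that the higher share of the calls went from 50% to 61.5%.

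**Figure D4:**
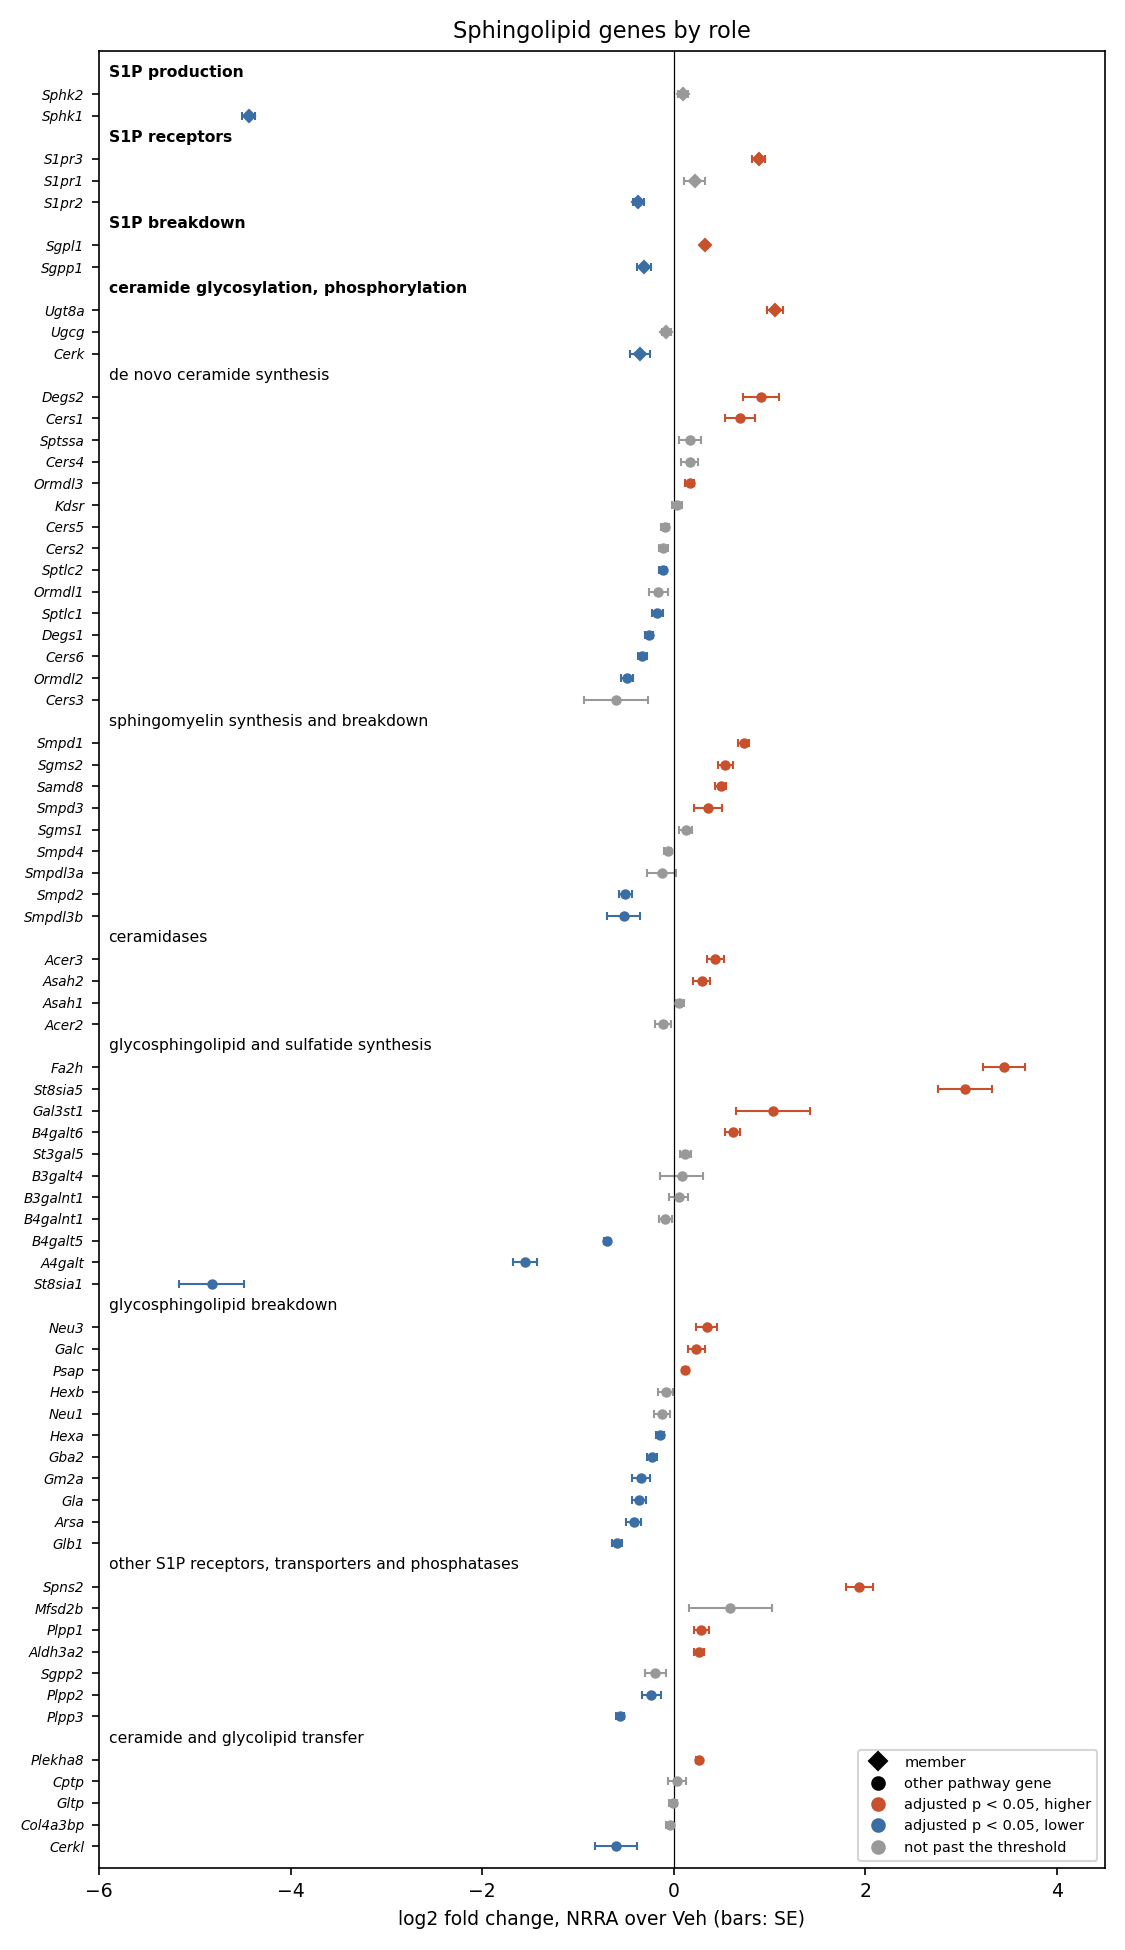
Log2 fold change (NRRA over Veh) with its SE for the members (diamonds) and the other pathway genes (circles) that passed the filter, apart from 1 that is left out, grouped by role. Colour shows genes past an adjusted p of 0.05, higher or lower, and grey those that were not. Most genes lie within 1 of 0, while Sphk1, St8sia1 and A4galt lie to the left and Fa2h, St8sia5 and Spns2 to the right.

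Synthesis of complex glycolipids and sulfatide held the widest range outside the members. Of 11 genes, 4 rose and 3 fell, with a median of 0.083. Fa2h, which adds the 2-hydroxyl group to fatty acids of galactosylceramide and sulfatide, had 25 and 15 counts in the Veh libraries against 264 and 221 counts in the NRRA libraries. The mean level was 0.713 ± 0.295 CPM for Veh against 7.72 ± 0.541 CPM for NRRA (SD over 2 libraries). Its log2 difference was 3.45 with an SE of 0.22 (adjusted p 5.04e-13, edgeR). Gal3st1, the sulfotransferase that acts after Ugt8a in making sulfatide and seminolipid, rose from 14 and 17 counts to 31 and 39, by 1.03 on the log2 scale with an SE of 0.39 (adjusted p 0.025, edgeR). That call was lost with DESeq2 (adjusted p 0.185), without Veh replicate 1 (log2 fold change 0.97), without Veh replicate 2 (1.11) and without NRRA replicate 2 (0.80).

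Of the ganglioside sialyltransferases listed, St8sia1 and St8sia5 moved in opposite directions, while St3gal5, which makes GM3, did not pass the threshold (0.12, SE 0.059, adjusted p 0.0859, edgeR). St8sia1, which makes GD3, fell from 116 and 148 counts to 3 and 7, which gave -4.82 on the log2 scale with an SE of 0.34 (adjusted p 2.93e-12, edgeR). At so few NRRA counts the size rested on single libraries, with -5.59 without NRRA replicate 2 and -4.29 without NRRA replicate 1. St8sia5, which acts on later gangliosides, rose from 14 and 13 counts to 115 and 131, which gave 3.04 with an SE of 0.28 (adjusted p 5.59e-10, edgeR). A4galt, which makes globotriaosylceramide, had 465 and 483 counts against 213 and 144, or -1.55 on the log2 scale with an SE of 0.12 (adjusted p 2.72e-11, edgeR). The lactosylceramide synthases, named after their values were seen, also differed in direction, with -0.69 (SE 0.032, adjusted p 5.24e-16, edgeR) for B4galt5 and 0.62 (SE 0.076, adjusted p 1.15e-07) for B4galt6. B4galt5 remained the more abundant per kilobase, by 17.1 and 16.0 times in Veh and 6.47 and 6.90 times in NRRA.

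Of the other S1P receptors, transporters and phosphatases 7 of 9 were tested, and 3 rose and 2 fell, with a median of 0.27. Spns2, which exports S1P from cells, had the largest rise, from 86 and 80 counts to 340 and 362. Its mean level was 2.93 ± 0.341 against 11.2 ± 1.12 CPM (SD over 2 libraries), and its log2 difference 1.94 with an SE of 0.15 (adjusted p 1.19e-11, edgeR). Plpp3, a lipid phosphate phosphatase of the cell surface, fell by 0.56 on the log2 scale (SE 0.042, edgeR adjusted p 1.32e-11). Spns2 was therefore higher in the same libraries in which Sphk1 was lower.

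De novo ceramide synthesis had 3 of 15 tested genes higher and 5 lower, with a median of -0.11. It ranged from Degs2 (0.91, SE 0.19, edgeR adjusted p 2.19e-04), a desaturase and hydroxylase of the last step, to Cers3 (-0.60, SE 0.33, edgeR adjusted p 0.128), a ceramide synthase with between 25 and 42 counts in each library. Degs2 overlaps Evl on the opposite strand over 10.8% of its exonic bases.

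Sphingomyelin synthesis and breakdown had 4 of 9 genes higher and 2 lower, with a median of 0.13. Smpd1, the acid sphingomyelinase of lysosomes, rose most, with a mean of 30.4 ± 0.894 CPM for Veh against 50.4 ± 1.80 CPM for NRRA (SD over 2 libraries). Its log2 difference was 0.73 with an SE of 0.058 (adjusted p 3.42e-11, edgeR). Smpdl3b was lowest at -0.52 (SE 0.17, edgeR adjusted p 0.0107), a call lost with DESeq2 (adjusted p 0.14) and without Veh replicate 2 (-0.36). Of the 4 tested ceramidases, which release sphingosine, 2 rose and the other two did not pass the threshold, with a median of 0.18. They ranged from Acer3 (0.44, SE 0.086, edgeR adjusted p 9.74e-05) to Acer2 (-0.11, SE 0.085, edgeR adjusted p 0.274). Of the longest Acer3 transcript 16.7% has near-identical stretches in other genes.

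Of 12 genes of glycosphingolipid breakdown, 7 were lower and 3 higher, with a median of -0.19, where 28.4% of all genes tested were lower and 27.9% higher. No direction is read from this count. Neu3, the plasma membrane sialidase, stood highest at 0.34 (SE 0.11, edgeR adjusted p 0.00746), a call lost with DESeq2 (adjusted p 0.0797) and without NRRA replicate 2 (0.22). Of 5 genes of ceramide and glycolipid transfer 1 rose and 1 fell, with a median of -0.0098. Plekha8, which carries glucosylceramide, rose by 0.26 (SE 0.031, edgeR adjusted p 6.72e-08). Cerkl, a ceramide kinase-like gene with 25.1% of its exonic bases overlapped by Itga4 and Neurod1, stood at -0.60 (SE 0.22, edgeR adjusted p 0.0233). That call was lost with DESeq2 (adjusted p 0.208), with library size only (-0.51), without Veh replicate 1 (-0.57) and without NRRA replicate 1 (-0.45).

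Upstream letters were read in the 250 bases before each RefSeq start, on both strands, for 9 of the 10 members (14 starts) and for all 32851 starts of the table. The RA receptor half-site AGGTCA was found once in the printed Sphk1 stretch, 171 bases before the start, once in that of S1pr2, 205 bases before, and once before Cerk, and 14.0% of all stretches hold it. The 5 stretches of Sphk1 overlap in part, so the same letters can be read more than once. Direct repeats of AGGTCA with 5 or 2 bases between, which contain that half-site, were found before no start of a member, and 3 of all stretches hold each kind. The printed Sphk1 stretch also holds the E-box CACGTG, 95 bases before the start, as do 6.02% of all stretches, and S1pr2 the cyclic AMP response element TGACGTCA (1.55%). The AP-1 letters TGANTCA stand before 2 other starts of Sphk1 (6.75%), and TATAAA 31 bases before its first start (12.4%).

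Ugt8a, alone among the 9 members read, held the letters CNCCTCAG, which have been tied to STRA8, 32 bases before its start and read on the opposite strand, as do 6.42% of all stretches. It also held the GC box GGGCGG 3 times, 2 of these overlapping each other, S1pr3 held it once, and Sgpl1, Sphk2 and Ugcg also held it (32.7% of all stretches). CCGGAAGT, the ETS letters, were found before no start of a member (2.88%). The Ugt8a stretch was 76.8% G or C with 32 CpG, against 51.6% with 12 CpG in the printed Sphk1 stretch and medians of 52.4% and 6 over all stretches. These matches describe letters only.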

How the data were processed

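RNA of 4 libraries (2 Veh, 2 NRRA, by sample title) was sequenced after oligo dT capture, per the study's methods, though labels and methods name different library kits. The authors deposited raw counts per gene, not normalized. The submitters' processing notes name bcl2fastq, STAR 2.6.1c, featureCounts 1.6.4 and mm10. The annotation release and strand setting are not given in the sources used here, and how reads shared by overlapping genes or close copies were assigned can change single values. Library columns were matched by the sample descriptions, which call the Veh libraries Veh2 and Veh3 where the titles call them replicates 1 and 2. Genes were filtered with filterByExpr, scaled by TMM and tested with edgeR 4.0.16 (R 4.3.3, quasi-likelihood F test, robust, Benjamini-Hochberg over all genes tested, threshold 0.05). SE values came from the F statistic. DESeq2 1.42.0, the tool of the study, and limma voom 3.58.1 were alternatives. All were tested on simulated data. Positions and exon lengths came from GENCODE M21 (GRCm38, 99.7% of gene identifiers found), promoters from RefSeq, and near-identical stretches (at least 95% over 100 bases) from BLAST 2.17.0. CPM per kilobase is CPM over the union of exons. The floors cover counting error only, and the 95% intervals of fold changes come from the fit.

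The members and gene lists were chosen with earlier results of these data known. Apart from members, the rule named the genes with the highest and lowest fold change of each pathway list, those changed at least 2-fold, RA targets, the nearest profiles and the markers needed. St3gal5, B4galt5, B4galt6, S1pr4 and S1pr5 fall outside it and were named after their values were seen. For glycosphingolipid breakdown, the gene with the lowest value is not reported here. The libraries of a group differed by more than sampling noise (chi-square per degree of freedom 2.45 in Veh and 1.99 in NRRA) and were counted separately.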

Additional observations from a re-analysis of the deposited data

How the results depend on the processing

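With 2 libraries a group, p-values rest on the spread between few libraries, described by the study as biologically independent. That spread was small, with a common biological coefficient of variation of 2.61%. Whether it covers the variation between separate mice or cultures was not tested, so the p-values speak for these libraries only. Under 11 alternatives, the numbers of all genes called stayed within 1.5 times those given. Of 352 single-gene values, 333 kept their side of the threshold, 16 lost it and 3 gained it. Of the 333, 1 turned sign (Ugcg with library size only, 0.012). Library size only raised the higher members from 3 to 5 and moved the pathway median from -0.038 to 0.052, where the median gene shifted by 0.0898, which this scaling brings by construction. DESeq2 called fewer of all genes tested (4252 higher and 4314 lower). It took the higher pathway genes from 20 to 15 and the lower ones from 20 to 13, and the cause was not tested. Leaving out 1 library in turn gave pathway medians of -0.058 to -0.0083, with the lone library assumed to vary like the other group. Libraries with the same replicate number did not deviate together (correlation of same-numbered deviations -0.0106 over all genes tested). With 2 libraries a group this cannot exclude a pairing. A fit with the replicate block gave 5772 higher and 5836 lower genes, against 5654 and 5752 without it, and again 3 higher and 4 lower members.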

Other observations

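The genes whose log2 CPM over the 4 libraries, centred on each gene's mean, lay nearest to that of Sphk1 among 11325 genes (those averaging 3 or more in log2 CPM) were Nefm (Euclidean distance 0.0745), Egr2 (0.185) and Lhx1 (0.208). Their log2 fold changes were -4.48, -4.26 and -4.27. Only 1 gene lay within a distance of 0.1, so Sphk1 had few neighbours. For Ugt8a the nearest were Ccnjl (0.0197), Gpr157 (0.0311) and Gas1 (0.032), with log2 fold changes of 1.06, 1.08 and 1.04, and 46 genes lay within 0.1. With 4 libraries in 2 groups such likeness is mostly the size of the group difference, and it is given as a description.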
